A study of Mus musculus with 6 samples.

Results

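Kinesins are motor proteins that walk along or take apart microtubules, and kinetochores are the protein assemblies that tie chromosomes to the microtubules of the spindle. The genes described here were chosen by symbol among the array's single-gene probe sets, which are sets of probes that the platform annotation assigns to 1 gene. They are the kinesins named Kif with a number, the centromere proteins named Cenp with a letter, and Ndc80, Nuf2, Spc24, Spc25, Knstrn, Ska1 and Ska3. This gave 63 of the 22180 genes on the array, read by 67 probe sets. For 4 genes with several probe sets, the brightest on average was used. The other probe sets of these 4 genes, Kif27, Kif5b, Kif7 and Knstrn, lay at or below background on all 6 arrays. Probe sets that name Cenpu, Cenpo or Kif3c together with another gene were left out.

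RNA was taken at confluence from mouse embryonic fibroblasts, connective tissue cells grown from embryos, of an F1 cross of C57Bl6N and 129Sv mice. The knockout cells were Pax7-/- and the wild type cells Pax7+/+, with 3 arrays each that are numbered as biological replicates 1 to 3. Pax7 encodes a DNA-binding regulator best known from satellite cells, the stem cells of skeletal muscle. The labels give neither the way in which Pax7 was disrupted nor what a replicate number stands for. The p-values therefore measure only the spread between these samples.

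The cell type label reads ESCs (embryonic stem cells), whereas the titles name fibroblasts. All 8 fibroblast markers lay above background in both genotypes, against 3 of 8 markers of pluripotent stem cells. Within the fibroblast list, Dcn, the matrix protein decorin, had a difference of -1.93 (limma adjusted p = 0.000578 with the replicate block and 1.00 without it), and Col3a1 was at -0.40 (limma adjusted p = 0.432 with the block). Of the 8, 4 were lower and 1 was higher in all 3 pairs, against 13.8% of all genes each way. The part of these changes in the values of the kinesin and kinetochore genes was not tested. The background level of an array was taken from 1394 genes for odorant and pheromone receptors, as the value that 95% of them did not exceed. It was 5.43, 5.34 and 4.63 on knockout replicates 1, 2 and 3, against 5.44, 5.33 and 4.65 on wild type replicates 1, 2 and 3. Both replicate 3 arrays stood apart: they correlated at 0.988 with each other and at 0.789 to 0.824 with the other 4 arrays. The level of nearly every gene below differs between replicate 3 and the other replicates in both genotypes, so differences are given within each replicate number as well as over all arrays.

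Mitotic kinesins and most kinetochore genes are made in waves, with transcripts that build up toward mitosis and are low in resting cells. Repressor and activator complexes act on many of their promoters through the cell cycle homology element, spelled TTTGAA, and through CCAAT boxes, which bind NF-Y. Transport kinesins such as Kif5b and Kif3a move organelles and vesicles in dividing and non-dividing cells alike. In bulk RNA, fewer dividing cells and less transcript per cell cannot be told apart.

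Promoter windows show a feature of these genes that their selection by name did not use. Each window runs from 250 bases before to 50 bases after an annotated start in RefSeq (GRCm38.p6), and 55 of the 63 genes had at least 1. The letters TTTGAA, on either strand, were found in 9 of 11 mitotic kinesins (81.8%), 4 of 7 outer kinetochore genes and 4 of 14 inner kinetochore genes, against 1 of 10 transport kinesins and 20.2% of all 27025 genes with a window. CCAAT, on either strand, was in 20 of 32 mitotic kinesins and kinetochore genes (62.5%), against 3 of 10 transport kinesins and 41.1% of all genes. Both were in 1 window in 12 of the 32 (37.5%), against 0 of 10 transport kinesins and 7.97% of all genes. A TTTGAA match within 30 bases of the start, a distance chosen after the positions were seen, was in 14 of the 32 (43.8%), against 0 of 10 transport kinesins and 3.72% of all genes. These are matches of letters and not measured binding sites. Of the 6 windows below, 5 are from mitotic kinesin and kinetochore genes with such a match near the start, and that of the transport kinesin Kif3c holds neither motif. Sequences run 5′ to 3′ in the direction of the gene, and capitals mark TTTGAA and CCAAT or their reverse complements, which do not overlap in these windows.
Kif11 (chr19:37376132-37376431, plus strand): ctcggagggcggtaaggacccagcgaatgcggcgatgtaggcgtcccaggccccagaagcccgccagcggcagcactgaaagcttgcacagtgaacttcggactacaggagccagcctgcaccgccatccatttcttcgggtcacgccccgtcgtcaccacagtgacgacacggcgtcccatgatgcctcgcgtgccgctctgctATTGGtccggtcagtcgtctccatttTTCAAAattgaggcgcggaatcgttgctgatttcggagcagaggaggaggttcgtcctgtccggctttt
Kif23 (chr9:61946750-61947049, minus strand): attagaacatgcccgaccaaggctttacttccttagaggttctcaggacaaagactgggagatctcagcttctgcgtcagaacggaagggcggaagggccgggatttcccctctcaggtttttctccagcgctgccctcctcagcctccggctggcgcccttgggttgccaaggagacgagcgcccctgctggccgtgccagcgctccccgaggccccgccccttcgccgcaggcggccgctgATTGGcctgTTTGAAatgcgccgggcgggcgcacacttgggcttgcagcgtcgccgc
Ndc80 (chr17:71526808-71527107, minus strand): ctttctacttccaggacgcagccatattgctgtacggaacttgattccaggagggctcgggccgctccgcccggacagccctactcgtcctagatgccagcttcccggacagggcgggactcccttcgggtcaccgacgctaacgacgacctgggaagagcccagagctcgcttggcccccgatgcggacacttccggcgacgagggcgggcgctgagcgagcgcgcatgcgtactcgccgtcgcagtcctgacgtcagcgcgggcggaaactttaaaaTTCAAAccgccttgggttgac
Cenpa (chr5:30666636-30666935, plus strand): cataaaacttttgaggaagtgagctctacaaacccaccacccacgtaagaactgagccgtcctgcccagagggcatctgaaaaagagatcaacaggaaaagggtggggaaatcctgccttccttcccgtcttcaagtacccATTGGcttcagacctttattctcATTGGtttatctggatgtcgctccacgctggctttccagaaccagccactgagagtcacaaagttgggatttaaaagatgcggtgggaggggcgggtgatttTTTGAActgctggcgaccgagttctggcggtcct
Spc25 (chr2:69206164-69206463, minus strand): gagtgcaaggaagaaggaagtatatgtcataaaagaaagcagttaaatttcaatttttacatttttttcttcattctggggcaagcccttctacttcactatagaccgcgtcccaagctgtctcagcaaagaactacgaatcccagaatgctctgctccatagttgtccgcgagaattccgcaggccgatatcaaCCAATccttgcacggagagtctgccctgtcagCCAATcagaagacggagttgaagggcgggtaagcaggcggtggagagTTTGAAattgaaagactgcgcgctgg
Kif3c (chr12:3364882-3365181, plus strand): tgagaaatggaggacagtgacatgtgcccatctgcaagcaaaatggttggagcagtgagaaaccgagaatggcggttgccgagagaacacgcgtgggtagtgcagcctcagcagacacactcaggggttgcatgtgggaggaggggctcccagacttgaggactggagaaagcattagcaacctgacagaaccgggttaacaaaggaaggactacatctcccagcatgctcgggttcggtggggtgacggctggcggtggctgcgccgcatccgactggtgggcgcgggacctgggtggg
In Kif11 the element begins 19 bases before the start (position -19) with a CCAAT box at -45, and in Kif23 it begins at 3 with a box at -7. In Ndc80 it lies at 30 with no CCAAT box, in Cenpa at 17 with boxes at -109 and -86, and in Spc25 at 25 with boxes at -55 and -23. Positions give the leftmost base of a match, with negative numbers before the start. The map of motif matches shows these places for the genes of the main classes that have a window, which Kif5b, Kif20a and Ska1, among others, do not.

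**Figure D1:**
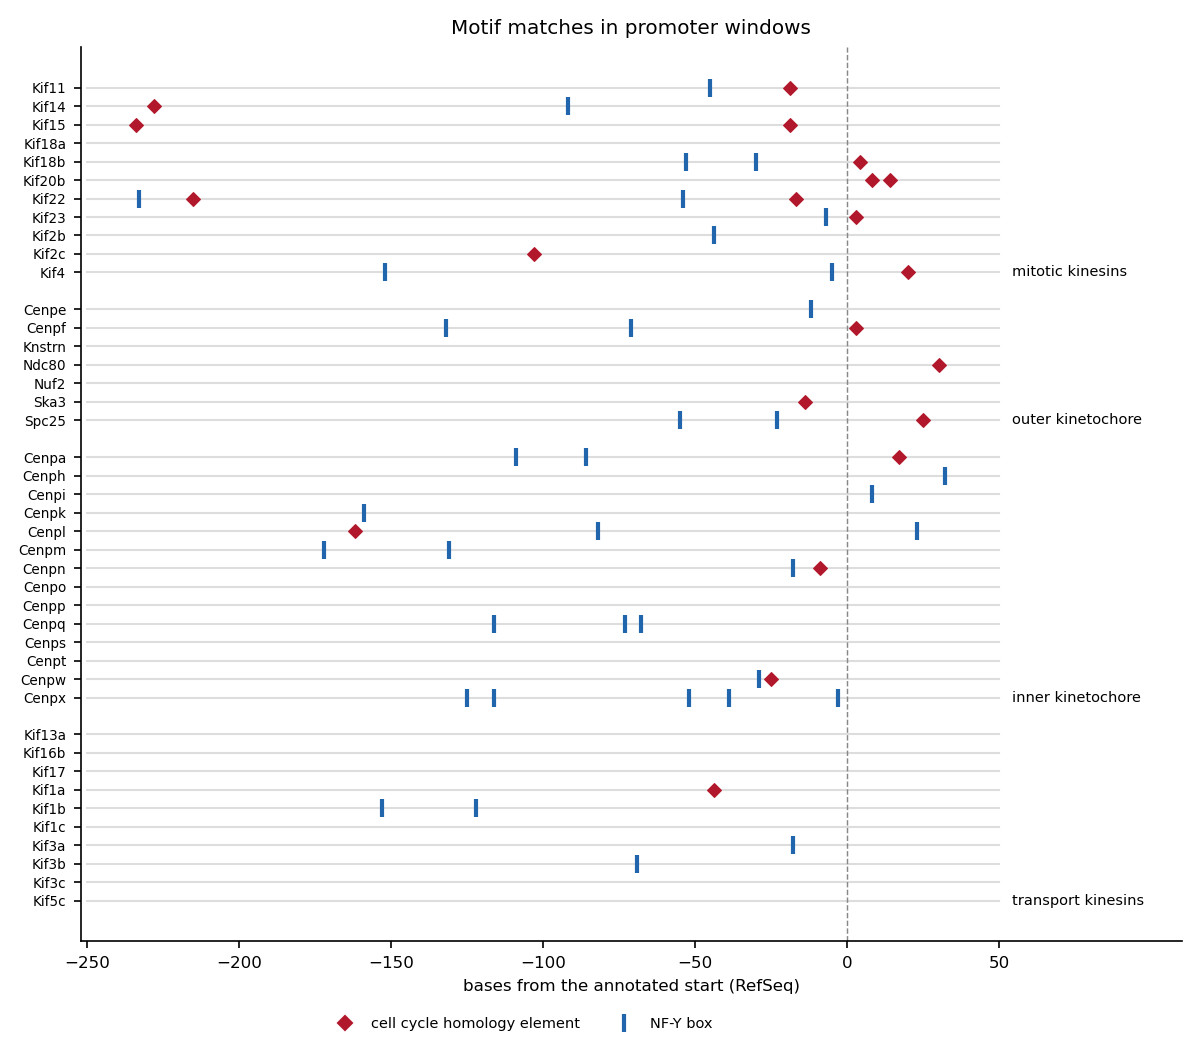
Positions of the cell cycle homology element (red diamonds) and the CCAAT box bound by NF-Y (blue bars) in the promoter windows of mitotic kinesins, outer and inner kinetochore genes and transport kinesins, as bases from the annotated start, with the window of lowest coordinate drawn where a gene has several. Red diamonds gather at the start in mitotic kinesins, while only Kif1a has one among the 10 transport kinesins.

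No kinesin or kinetochore gene differed between knockout and wild type past an adjusted p of 0.05 (limma, Benjamini-Hochberg over all genes). With genotype as the only term, 0 of 63 passed against 0.0% of all genes, and 0 of 63 had an unadjusted p under 0.05 against 0.0676%. With the replicate number as a block, 0 of 63 passed against 0.0766% of all genes, the smallest adjusted p being 0.541 for Kif26b. At an unadjusted p under 0.05 with the block, 9 members were lower in the knockout (14.3%, against 3.45% of all genes) and 1 was higher (1.59%, against 3.28%). The 9 were Kif11, Kif20a, Kif15, Nuf2, Ska1, Spc25, Cenpa, Kif5b and Kif26b, and the 1 was Kif3c. The arrays of the genotypes overlapped for all 63 members, while 0.744% of all genes lay lower and 0.667% higher in the knockout without overlap.

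Differences of the mitotic kinesins and kinetochore genes were small and mostly negative. Of 35 such genes, 19 were lower in the knockout in all 3 pairs (54.3%) and 2 were higher in all 3 pairs (5.71%), against 13.8% and 13.8% of all genes. Among the 13 transport kinesins, 1 was lower and 3 were higher in all 3 pairs. Without the replicate 3 pair, 19 of the 35 were lower in both remaining pairs (24.6% of all genes), and after quantile normalization of the 6 arrays 18 were lower in all 3 pairs (13.6% of all genes). The 19 include Kif4, Ska1, Ska3, Cenpk, Cenpi, Cenpl and Cenpq, which were above background on replicate 3 alone. For these, pairs 1 and 2 compare background signals. Of the 35, 18 exceeded background on all 6 arrays, with a median difference of -0.12. The counts of lower genes were not split by background. The 35 genes were read on the same 6 arrays, so they are not independent observations of the genotypes. The pairing of replicates 1 and 2 rests on their numbers alone.

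The median difference, knockout minus wild type on the log2 scale, was -0.09 over 12 mitotic kinesins, -0.17 over 9 outer kinetochore genes and -0.13 over 14 inner kinetochore genes. It was 0.07 over the transport kinesins, -0.04 over the 12 remaining kinesins and -0.00 over all genes. Taken by replicate number, the median of the 35 mitotic kinesin and kinetochore genes minus that of the transport kinesins was -0.07, -0.11 and -0.36 for replicates 1, 2 and 3, and -0.20 over all. The sign was common to the 3 pairs, and the replicate 3 pair had the largest value. Only in that pair was the transport median clearly above 0, at 0.19, against -0.00 and 0.02 in pairs 1 and 2. With both arrays of replicate 3 left out the contrast was -0.08, and without replicates 1 and 2 it was -0.28 and -0.19. The mitotic kinesin median was -0.02 without replicate 3 and -0.17 without replicate 1.

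Leaving out 1 array at a time, which gives the genotypes unequal shares of replicate 3, turned these medians over. With knockout replicate 1, 2 or 3 removed, the mitotic kinesin median was 0.20, 0.17 or -0.73. With wild type replicate 1, 2 or 3 removed, it was -0.49, -0.41 or 0.54. For all 23 kinetochore genes it was 0.09, 0.07 and -0.63 without the knockout arrays in the same order, and -0.43, -0.38 and 0.38 without the wild type arrays. For transport kinesins it was 0.16, 0.10 and -0.14 without the knockout arrays, and -0.08, -0.05 and 0.22 without the wild type arrays. The contrast of the 35 genes with transport kinesins was -0.03, -0.02 and -0.51 without the knockout arrays, and -0.38, -0.34 and 0.22 without the wild type arrays.

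**Figure D2:**
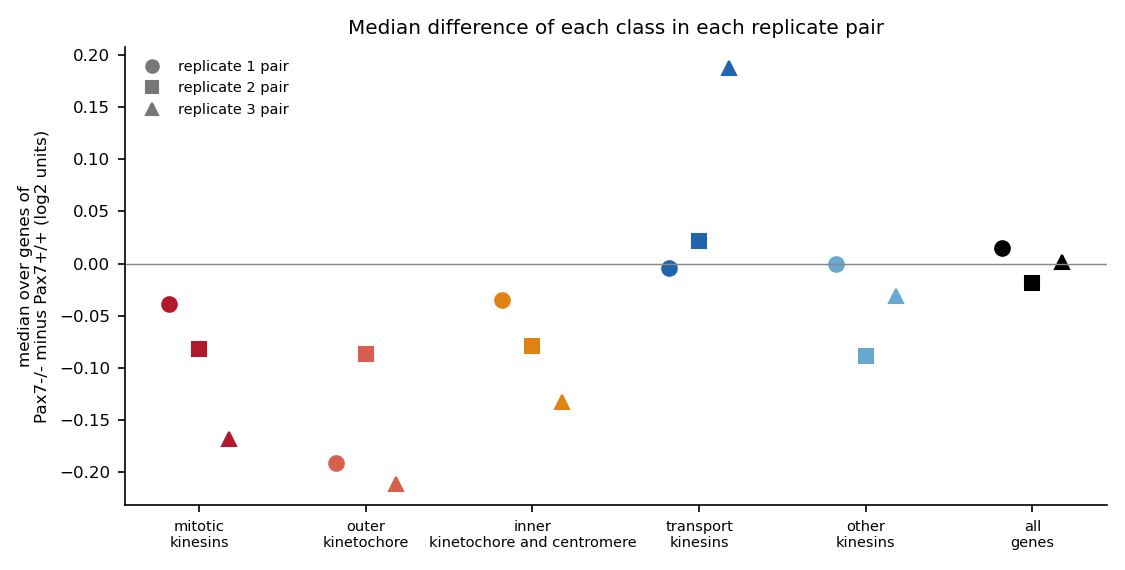
Median over the genes of a class of the knockout minus wild type difference in log2 signal, for each replicate pair. The mitotic kinesins and both kinetochore classes lie below 0 in all 3 pairs, transport kinesins lie near 0 in pairs 1 and 2 and at 0.19 in pair 3, and the median of all genes stays near 0.

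Among mitotic kinesins, Kif11 (Eg5), the motor that pushes the spindle poles apart, had a log2 signal of 6.09, 6.07 and 8.63 on knockout replicates 1, 2 and 3, against 6.21, 6.61 and 8.79 on wild type replicates 1, 2 and 3. The knockout array was the lower of each pair, by most in replicate 2, and the genotypes overlapped because replicate 3 was high in both. The difference was -0.27 (SE 0.11 with the block and 0.99 without, 95% interval with the block -0.52 to -0.03, adjusted p with the block 0.692). Kif20a, which carries the passenger complex to the central spindle for cytokinesis, stood at 7.01, 7.03 and 8.94 in the knockout, against 7.17, 7.40 and 9.11 in wild type. Again each knockout array was the lower of its pair, with a difference of -0.23 (SE 0.09 with the block, limma adjusted p = 0.695). Kif15, which backs up Kif11 in keeping the spindle bipolar, had 5.10, 5.36 and 7.44 in the knockout, against 5.44, 5.54 and 7.61 in wild type. Its signals on replicate 1 lay at or below background in both genotypes on these arrays, and its difference was -0.23 (SE 0.09).

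Kif23 (MKLP1), the motor of the centralspindlin complex at the midbody, did not keep 1 sign: it had 6.38, 6.33 and 8.55 in the knockout, against 6.14, 6.53 and 8.78 in wild type. Its difference was -0.06, with a 95% interval of -0.32 to 0.19 with the block. Kif2c (MCAK), which takes microtubules apart at their ends and frees wrongly attached chromosomes, was at 5.81, 6.01 and 7.79 in the knockout, against 5.85, 5.97 and 8.07 in wild type. Only its replicate 3 pair differed by more than 0.1, and the mean difference was -0.09 (SE 0.10). The other 7 mitotic kinesins had differences between -0.20 and 0.12. Of these, Kif4, Kif14 and Kif18b were lower in all 3 pairs and Kif18a, which dampens chromosome movement at the metaphase plate, was higher in all 3 pairs (0.12). Kif18a and Kif2b were not above background in the mean of either genotype.

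**Figure D3:**
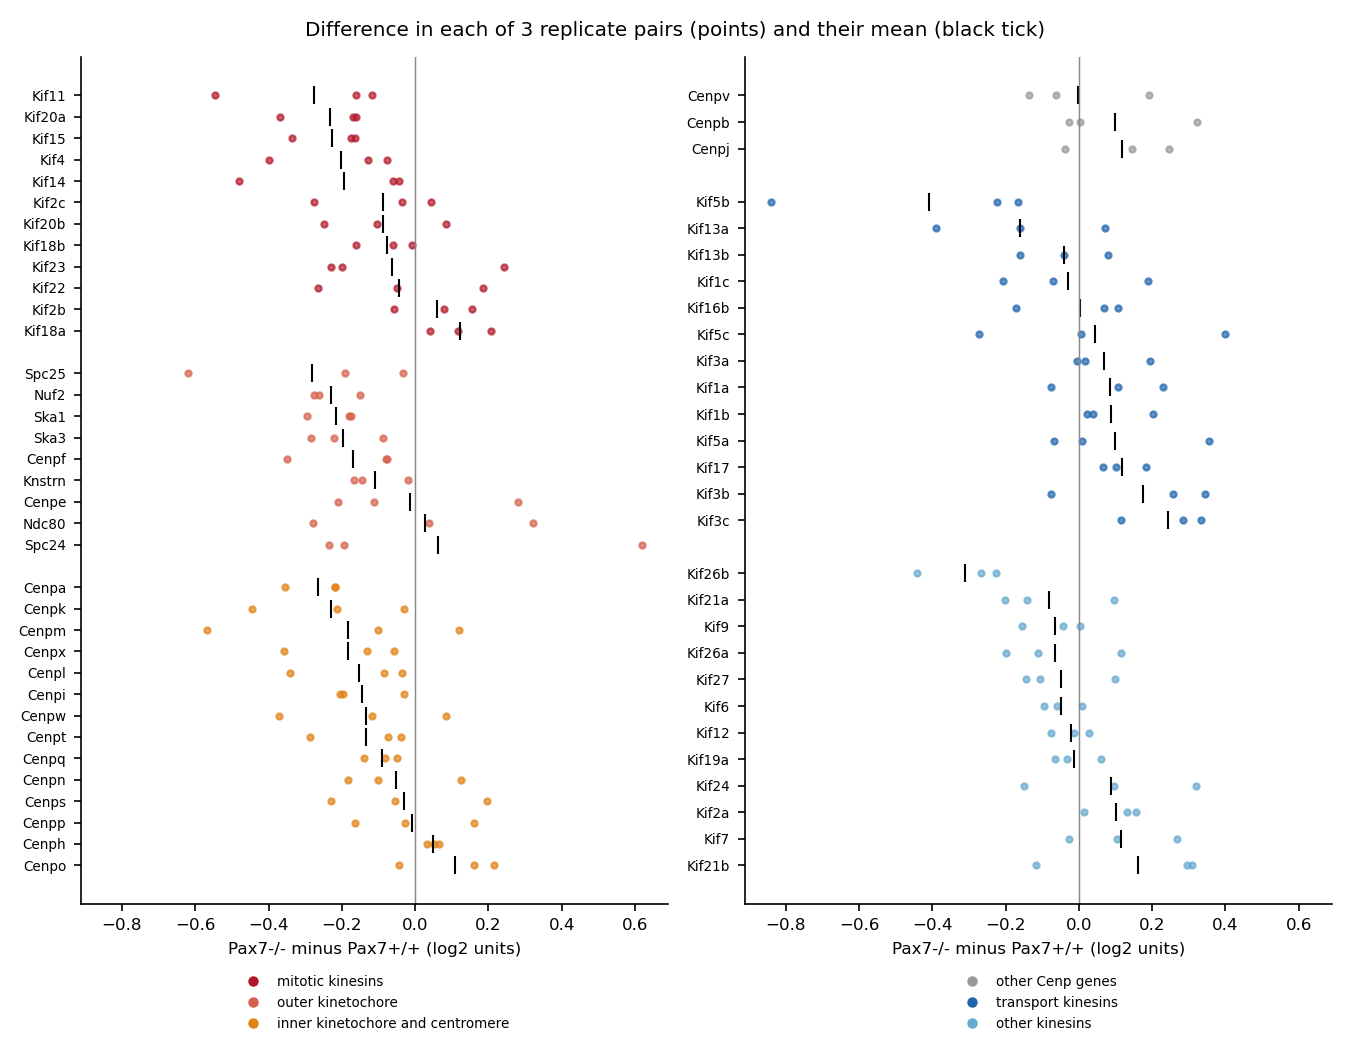
Knockout minus wild type difference in log2 signal of all 63 members in each of 3 replicate pairs (points) with their mean (black tick), by class. Most points of mitotic kinesins and kinetochore genes lie left of 0, between -0.62 and 0.62, while transport kinesins scatter on both sides with Kif5b farthest left at -0.84 in replicate 2.

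At the outer kinetochore, the Ndc80 complex is the rod that grips microtubules, and it has 4 subunits. Nuf2 and Spc25 were lower in all 3 pairs, whereas Ndc80 and Spc24 had mixed signs, and no test compared the subunits. Nuf2 was at 6.32, 6.52 and 8.56 in the knockout, against 6.60, 6.78 and 8.71 in wild type, lower by 0.28, 0.26 and 0.15 in pairs 1, 2 and 3. Its difference was -0.23 (SE 0.09 with the block and 0.83 without, limma adjusted p = 0.692 with the block). Spc25 was at 5.80, 5.97 and 7.09 in the knockout, against 5.99, 6.01 and 7.71 in wild type, so that its difference of -0.28 (SE 0.12) was largest in the replicate 3 pair. Ndc80 itself had 5.06, 5.71 and 8.22 in the knockout, against 5.34, 5.39 and 8.18 in wild type. The knockout was lower in replicate 1 and higher in replicate 2, where Ndc80 lay near background, and the mean difference was 0.03 (95% interval -0.24 to 0.30). Spc24 was likewise mixed, with pair differences of -0.23, 0.62 and -0.19.

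The other outer kinetochore proteins hold microtubules or extend the kinetochore. Ska1, part of the complex that tracks shrinking microtubule ends, had 4.90, 4.85 and 5.38 in the knockout, against 5.08, 5.03 and 5.68 in wild type. It was above background only on replicate 3, and not in the mean of the knockout, with a difference of -0.22 (SE 0.09). Cenpf, a large protein of the outer kinetochore, was at 5.90, 5.99 and 7.09 in the knockout, against 5.97, 6.07 and 7.44 in wild type, a difference of -0.17 (SE 0.10) carried by replicate 3. Knstrn had 6.82, 6.84 and 7.91 in the knockout, against 6.99, 6.99 and 7.93 in wild type. It was lower in all 3 pairs, by 0.02 only in replicate 3. Cenpe, a kinesin that moves chromosomes to the spindle equator, was at 5.73, 5.71 and 7.64 in the knockout, against 5.45, 5.82 and 7.85 in wild type. Its pairs had opposite signs and the difference was -0.01 (95% interval -0.27 to 0.24). Ska3 was lower in all 3 pairs (-0.22, -0.09 and -0.28), but was above background on replicate 3 alone.

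At the inner kinetochore, Cenpa encodes the histone H3 variant that marks the centromere. Its log2 signal was 6.61, 6.58 and 8.08 in the knockout, against 6.83, 6.80 and 8.43 in wild type, lower by 0.22, 0.22 and 0.35 in pairs 1, 2 and 3. The difference of -0.26 (SE 0.09 with the block and 0.63 without, limma adjusted p = 0.632 with the block) was above the spread between pairs but not past the threshold over all genes. Cenpx, a histone-fold protein that also serves DNA repair, had 5.45, 5.40 and 6.76 in the knockout, against 5.58, 5.76 and 6.82 in wild type. Cenpi, of the constitutive centromere network, had 5.18, 5.09 and 7.63 in the knockout, against 5.39, 5.29 and 7.66 in wild type. Both were lower in all 3 pairs, by 0.06 in Cenpx and 0.03 in Cenpi in the replicate 3 pair. Cenpi was above background on replicate 3 alone. The other 11 inner kinetochore genes lay between -0.23 (Cenpk) and 0.11 (Cenpo), and 5 of the 14 were not above background in the mean of either genotype. Of the 3 Cenp genes placed in neither kinetochore class, Cenpv had 5.81, 5.93 and 5.88 in the knockout, against 5.95, 5.74 and 5.94 in wild type. Cenpb and Cenpj, a centriole protein, had differences of 0.10 and 0.12. None of the 3 was counted among the 35 mitotic kinesin and kinetochore genes.

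**Figure D4:**
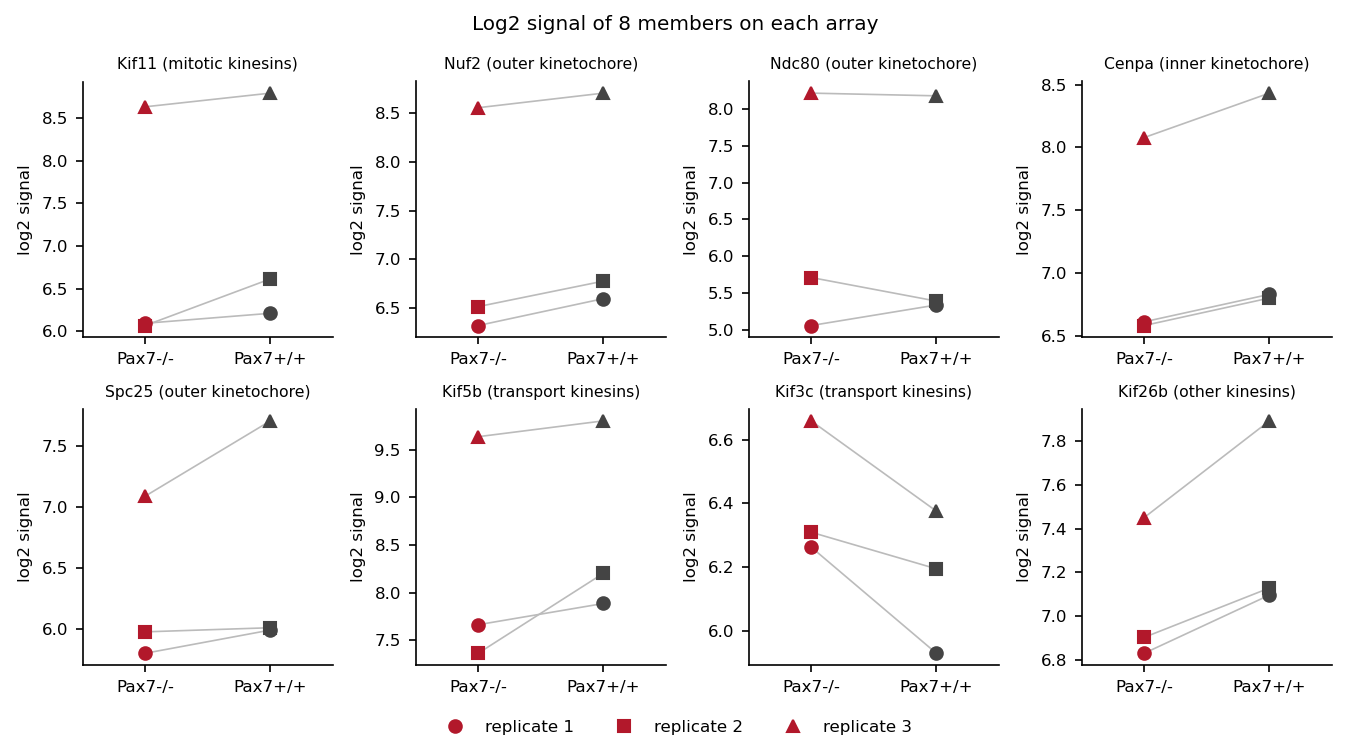
Log2 signal of 8 members on each array, with the knockout at the left and wild type at the right, and a grey line joining arrays of the same replicate number. Kif11, Nuf2, Cenpa, Spc25, Kif5b and Kif26b are lower in the knockout in all 3 pairs, Kif3c is higher in all 3, and Ndc80 has mixed signs, while replicate 3 is above replicates 1 and 2 in every panel.

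Of the transport kinesins, Kif5b, the heavy chain of the conventional kinesin found in most cells, was the member of its class farthest below 0. It had 7.66, 7.36 and 9.64 in the knockout, against 7.89, 8.20 and 9.80 in wild type. All pairs were lower, by 0.84 in replicate 2 but by 0.22 and 0.17 in replicates 1 and 3, and the difference was -0.41 (1.33-fold lower, SE 0.13 with the block and 0.79 without, limma adjusted p = 0.603 with the block). Kif3c, a kinesin-2 subunit known best from neurons, had 6.26, 6.31 and 6.66 in the knockout, against 5.93, 6.19 and 6.38 in wild type. It was higher in all 3 pairs, by 0.24 on average (1.18-fold, SE 0.09 with the block and 0.21 without, limma adjusted p = 0.685 with the block). Kif3b, the partner of Kif3a in the motor that builds cilia, had 5.12, 5.35 and 6.85 in the knockout, against 5.19, 5.10 and 6.51 in wild type, a difference of 0.18 (SE 0.11) with mixed signs.

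Kif3a had 5.85, 5.77 and 6.44 in the knockout, against 5.85, 5.75 and 6.25 in wild type, a difference of 0.07 (95% interval -0.14 to 0.28). Kif1b, which carries mitochondria and vesicles, had 5.81, 5.96 and 8.04 in the knockout, against 5.77, 5.94 and 7.84 in wild type. It was higher in all 3 pairs, but by under 0.05 in replicates 1 and 2, with a mean difference of 0.09 (SE 0.09). The other 8 transport kinesins, among them the neuronal Kif1a, Kif5a and Kif5c, lay between -0.16 and 0.12. The summed signal of 9 neuron markers, on the log2 scale, was between 8.97 and 9.61 on the 3 knockout arrays, against 8.93 and 9.31 on the 3 wild type arrays. It was higher in the knockout in all 3 pairs, most in replicate 3, and 6 of the 9 markers were above background in both genotypes. The markers did not share 1 direction: Stmn2 was higher in all 3 pairs (0.48 on average), Gap43 was lower in all 3 (-0.15), and the other 7 had mixed signs. For 6 skeletal muscle markers the summed signal was between 9.76 and 10.16 on the knockout arrays, against 9.52 and 9.76 on the wild type arrays, and was also higher in the knockout in all 3 pairs. Of these 6, 3 were higher in all 3 pairs and 0 were lower in all 3, against 13.8% of all genes each way. Above background in both genotypes were 4 of the 6, without Ckm, which was 1 of the 3 that were higher. Acta1, the brightest of the 6 on every array, had mixed signs (-0.04, 0.14 and 0.70 in pairs 1, 2 and 3). The median difference of the 6 was 0.19. The part of either list in the transport kinesin values was not tested.

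The remaining 12 kinesins have varied roles, among them cilia, signalling and the control of microtubule length. Kif2a, a microtubule depolymerase of spindle poles and neurons, was higher in the knockout in all 3 pairs (0.13, 0.16 and 0.02). It was not counted with the mitotic kinesins. Kif26b, a kinesin without motor activity, is needed for kidney development and works in Wnt5a signalling. In the fit with the block, though not in that without it, Kif26b had the smallest p of all members. Its log2 signal was 6.83, 6.90 and 7.45 in the knockout, against 7.10, 7.13 and 7.89 in wild type, lower by 0.27, 0.23 and 0.44 in pairs 1, 2 and 3. The difference was -0.31 (1.24-fold lower, SE 0.09 with the block and 0.31 without). Kif21b, a regulator of microtubule growth in neurons and T cells, had 6.40, 6.13 and 5.97 in the knockout, against 6.11, 6.24 and 5.66 in wild type. Kif7, the ciliary regulator of Hedgehog signalling, had 6.35, 6.58 and 5.79 in the knockout, against 6.37, 6.31 and 5.69 in wild type. Both had mixed signs, and both were lower on replicate 3 than on replicates 1 and 2 in both genotypes. The other 9 lay between -0.08 and 0.10.

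The largest variation of these genes was not between genotypes but between replicate numbers. On replicate 3, 26 of the 35 mitotic kinesin and kinetochore genes were more than 1 log2 unit above the mean of replicates 1 and 2 in both genotypes (74.3%, against 23.0% of all genes), and 0 were as far below it (against 8.95% of all genes). For mitotic kinesins the median shift was 1.95 in the knockout and 2.17 in wild type, and 11 of 12 were over 1 in both. The exception was Kif2b, a kinesin known from testis, which was not above background. Over the 11773 genes above background in both genotypes, the median shift was 0.79 in the knockout and 0.82 in wild type. Over all genes it was -0.10 in each genotype, and for transport kinesins 0.63 in the knockout and 0.45 in wild type. Transport kinesins were split: 6 of 13 were over 1, while Kif17 and Kif5a were lower by 1.21 and 1.26 in the knockout and by 1.19 and 1.01 in wild type. The 12 remaining kinesins had a median shift of -0.41 in the knockout and -0.48 in wild type, with Kif2a alone above 1. Ska3 was higher on replicate 3 by 2.97 in the knockout and 3.10 in wild type, Ndc80 by 2.83 and 2.82, and Cenps was lower by 0.62 and 0.31.

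The interquartile range of all signals was 1.91, 1.91 and 2.52 on knockout replicates 1, 2 and 3, against 1.88, 1.94 and 2.56 on wild type replicates 1, 2 and 3. Quantile normalization, which removes this difference in scale, left a median shift over both genotypes of 1.14 for mitotic kinesins, 0.72 for outer and 0.91 for inner kinetochore genes, against 0.05 for transport kinesins, -0.64 for the remaining kinesins and -0.02 for all genes (-0.11 before it). For genes above background in both genotypes, this median was 0.04 after quantile normalization and 0.81 before it. Counting any rise, 29 of the 35 were higher on replicate 3 in both genotypes after it (against 42.8% of all genes), and 32 of the 35 were before it (against 42.8% of all genes). The share of the shift that belongs to the cells and that which belongs to the handling of the arrays cannot be told apart, because the labels do not say in what replicate 3 differed.

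**Figure D5:**
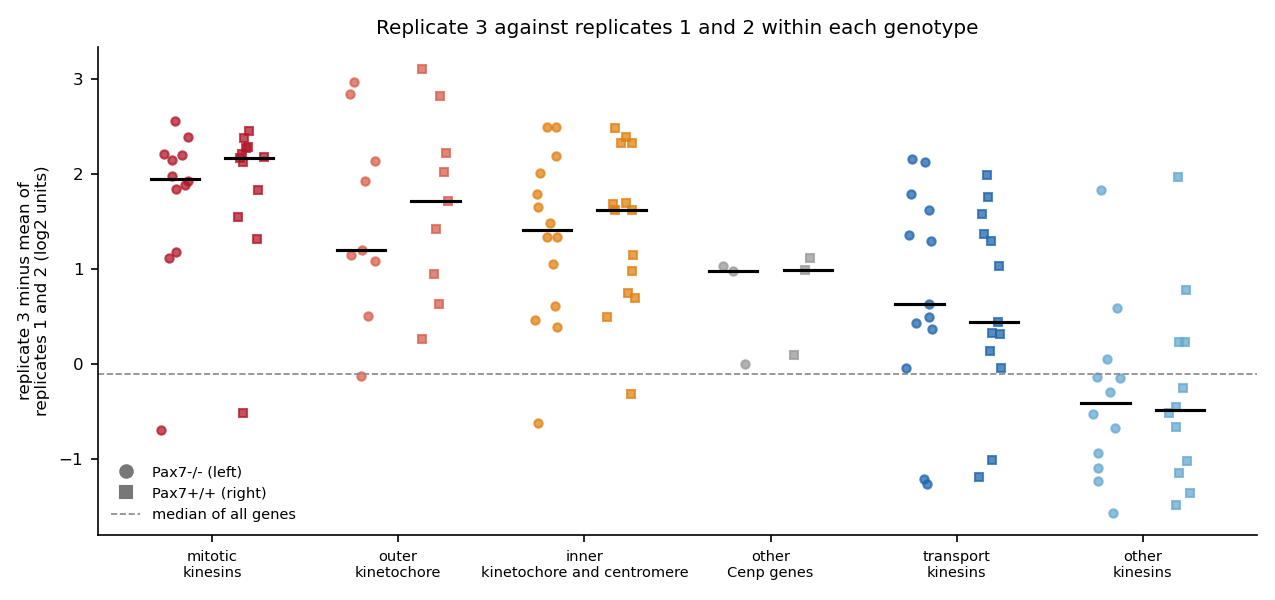
Log2 signal on replicate 3 minus the mean of replicates 1 and 2, for each member within the knockout (circles, left) and wild type (squares, right), by class, with bars at class medians and a dashed line at the median of all genes. Mitotic kinesins other than Kif2b lie between 1.12 and 2.55 in both genotypes, transport kinesins spread from -1.26 to 2.16, and most remaining kinesins lie below 0. The median over genes above background in both genotypes was 0.81, above the dashed line, and is not drawn.

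Other genes of the same pathways were counted in the same way. Of 21 further genes of the kinetochore, of CENP-A loading and of the spindle checkpoint, 0 passed with the block (limma), 6 were lower and 2 higher in all 3 pairs (against 13.8% of all genes each way), and the median difference was -0.09. At an unadjusted p under 0.05 with the block, Ska2, the partner of Ska1 and Ska3, was lower (-0.16, -0.76 and -0.26 in pairs 1, 2 and 3). Ska2 lay below background on replicate 1 in both genotypes and on knockout replicate 2. Itgb3bp was also lower at that threshold (-0.16, -0.21 and -0.74), but its signal was not above background in the mean of either genotype. Zwint, which links the outer kinetochore to checkpoint proteins, was higher (0.57, 0.11 and 0.22). Of 10 passenger complex and central spindle partners, 0 passed, 5 had the knockout lower in every pair, none had it higher in every pair, and the median was -0.15. Aurkb, the kinase of the passenger complex that Kif20a carries, was at -0.31 (SE 0.11).

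Among 4 proliferation markers, 2 were lower in the knockout in all 3 pairs and 0 were higher in all 3, against 13.8% of all genes each way. Mki67, the Ki-67 antigen of cycling cells, had 8.001, 8.31 and 9.54 in the knockout, against 8.36, 8.43 and 9.76 in wild type, and Top2a, the mitotic topoisomerase, had 7.16, 6.90 and 8.98 in the knockout, against 7.26, 7.59 and 9.22 in wild type. Both were lower in the knockout in all 3 pairs (means -0.24 and -0.34, limma adjusted p = 0.695 and 0.646 with the block) and higher on replicate 3 by 1.37 to 1.95. Pcna and Mcm2, which serve DNA replication, had mixed signs, at -0.11 and 0.00. The part of the number of cycling cells in the values of the members was not tested.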

How the data were processed

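The authors deposited log2 signals for each probe set of 6 Affymetrix arrays, produced by RMA (robust multi-array average) in Partek per the submitters' processing notes. No versions, settings or build are stated there, so no array positions are printed. That the scale is log2 was inferred from its range and from RMA. Quartiles differ between arrays, so the deposited signals were not brought to 1 distribution. Of 41345 probe sets, 23521 name 1 gene, and the brightest for each gene was kept (22180 genes).

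Genotypes were compared in limma 3.58.1 (R 4.3.3) by moderated two-sided tests, either on genotype alone or with replicate number as a block. Deviations of equal-numbered arrays from their genotype's mean correlated at 0.875, 0.834 and 0.959, all over 0.1, so numbers were treated as pairs. Replicate 3 weighs heavily in these means, so the values for replicates 1 and 2 cannot show which of those arrays belong together. Knockout replicate 1 correlated at 0.9865 and 0.9853 with wild type replicates 1 and 2, and knockout replicate 2 at 0.9841 with each. Only the match of the replicate 3 arrays comes from the data. Pairing within replicates 1 and 2 rests on their numbers and is not stated in the labels. SEs are those of limma. A gene counts as above background in a genotype when its mean and at least 1 array exceed background. The procedure was tested on simulated data with paired arrays and changes larger than those of the members. That test cannot show whether changes as small as theirs would be found. The number of arrays limits the precision.

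Members, classes and lists were chosen with earlier results of these data known. Values on every array are given for 15 textbook members (Kif11, Kif23, Kif20a, Kif2c, Cenpa, Cenpe, Cenpf, Ndc80, Nuf2, Spc25, Knstrn, Ska1, Kif5b, Kif3a and Kif1b) and, in each class, for the 3 above background with the smallest blocked p. Further members were singled out after their values were seen. Alternatives were leaving out arrays or pairs, quantile normalization, a filter on dim genes, the mean of probe sets and a variance trend. Quantile-normalized replicate 3 shifts and medians over members above background on all 6 arrays were added after the data were seen. Listed genes without a usable probe set, among them Hjurp, Mis12 and Oip5, and protein sequences were not analysed here.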

Additional observations from a re-analysis of the deposited data

How the results depend on the processing

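No kinesin or kinetochore gene passed an adjusted p of 0.05 (limma) in any fit or alternative, and the replicate block changed no call. Members with an unadjusted p under 0.05 numbered 0 without the block and 10 with the replicate block. Of all genes, 0.0676% had such a p without the block. With the block, 3.45% had it and were lower, and 3.28% had it and were higher. In the blocked alternatives, members numbered 9, 5 and 3 without replicates 1, 2 and 3, and 8 after quantile normalization. They numbered 9 with the filter on dim genes and 8 with the variance trend. The share of all genes was not counted in these alternatives, so whether their counts exceed it is not known. The mitotic kinesin median (-0.09) was -0.17 with the block and without replicate 1, and -0.022 without replicate 3. With the filter on dim genes, which kept 8 of the 12, it was -0.14. Leaving out 1 array at a time, it ranged over -0.73 to 0.54, the kinetochore median over -0.63 to 0.38, the transport kinesin median over -0.14 to 0.22, that of the remaining kinesins over -0.15 to 0.20, and the contrast over -0.51 to 0.22. Replicate 3 then has a different weight in each genotype.

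Single genes changed sign as follows, and the cause was not tested. With the block, Kif2c was at 0.0038 without replicate 3, and Kif23 was at 0.0055 without replicate 2 and 0.021 without replicate 3. Ndc80 was at -0.12 without replicate 2, and Cenpe at 0.035 and 0.084 without replicates 2 and 3. Cenpv was at 0.064 and 0.027 without replicates 1 and 3. After quantile normalization, with or without the block, Cenpe was at 0.040 and Cenpv at 0.019. With the mean of probe sets, Knstrn was at 0.013. With 1 array left out, differences ranged over -1.12 to 0.52 for Kif11, -0.87 to 0.38 for Kif20a, -0.96 to 0.48 for Kif15, -0.72 to 0.63 for Kif2c, -0.79 to 0.75 for Kif23, -0.94 to 0.44 for Nuf2, -0.39 to -0.0081 for Ska1, -0.68 to 0.29 for Spc25. They ranged over -0.55 to 0.30 for Cenpf, -0.47 to 0.20 for Knstrn, -0.92 to 0.97 for Ndc80, -0.66 to 0.73 for Cenpe, -0.76 to 0.28 for Cenpa, -0.63 to 0.20 for Cenpx, -0.97 to 0.63 for Cenpi, -0.071 to 0.035 for Cenpv. For the others they were -1.12 to 0.18 for Kif5b, 0.12 to 0.35 for Kif3c, -0.36 to 0.63 for Kif3b, -0.63 to 0.75 for Kif1b, -0.14 to 0.22 for Kif3a, -0.51 to -0.051 for Kif26b, -0.0088 to 0.28 for Kif21b, -0.10 to 0.34 for Kif7.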

Other observations

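The C-terminal kinesins, whose motor domain walks toward the minus end, are not among the 63 members. Kifc1, which pulls spindle poles together, had 4.58, 4.37 and 5.30 on knockout replicates 1, 2 and 3, against 4.85, 4.99 and 5.22 on wild type replicates 1, 2 and 3, a difference of -0.27 (SE 0.13 with the block, limma adjusted p = 0.761). It lay at or below background on replicates 1 and 2. The annotation also holds a related gene, Kifc5b, so its value is uncertain. Kifc2 and Kifc3 were at 0.13 and 0.01 and were lower on replicate 3 in both genotypes. Of 11 light chains, adaptors and other partners of transport kinesins, 0 passed with the block (limma), and their median difference was -0.06. In all 3 pairs, 3 of them were lower and 1 was higher, against 13.8% of all genes each way. Kifap3, the subunit that joins Kif3a and Kif3b, had pair differences of 0.12, -0.23 and -0.21, and Trak2, which ties mitochondria to kinesin, had -0.02, -0.25 and -0.09.

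Profiles over the 6 arrays were compared with that of Ndc80 after each gene was centred on its mean. Genes without a proper name, such as predicted genes, were left out. The closest of the others were Mtrex, Sft2d2, Psmd11, Ddx52 and Zxdb, with mean absolute differences of 0.064 to 0.099 log2 units. None of these 5 is a kinesin or kinetochore gene, and 0 of the 100 genes closest to Ndc80 were among the 63 members. Each was higher on replicate 3 by 2.66 to 2.90 in both genotypes, and Ndc80 by 2.83 in the knockout and 2.82 in wild type.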
